A study of Mus musculus with 2 samples.

Results

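Potassium channel genes were described in the neural tube of the mouse embryo at 12.5 days, the tissue from which the brain and spinal cord form. The set was every protein-coding gene whose symbol starts with Kcn, found by Ensembl identifier in both libraries, with antisense names such as Kcnq1ot1 left out. It came to 94 genes of the 43346 mouse genes in the deposited tables, 21474 of which are protein-coding. Total RNA sequencing was done on 2 libraries of a single group, healthy B6NCrl embryos with the sexes mixed. Replicate 1 was made from 120 pooled embryos and replicate 2 from 88, each with 10 ng of RNA longer than 200 nucleotides, and both pools carry the same donor label. The series has no treatment, mutant or second stage, so no p-value can be given, and what follows describes levels and the spread between these 2 pools. In bulk tissue, fewer cells of a type and less RNA per cell cannot be told apart.

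Potassium channels let potassium leave or enter a cell along its gradient, which sets the resting potential, ends action potentials and shapes firing. A pore is built from alpha subunits, as tetramers of voltage-gated, calcium-activated or inward-rectifier subunits or as dimers of the subunits with a pair of pore domains. Auxiliary subunits (Kcnab, Kcne, Kcnip and Kcnmb) bind the pore proteins and change their gating or their traffic to the membrane.

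The tables summed to 32612423 expected counts (replicate 1) and 34555002 (replicate 2), an expected count being the authors' estimate of reads per gene. Kcn genes held 20664 and 23340 of these, or 0.0654% and 0.0696% of the counts of mouse genes. Levels are given as TPM, a measure of transcript number that corrects for transcript length and library depth. Tissue markers were present: all 6 neuron markers and all 6 neural progenitor markers reached 1 TPM in both libraries, with summed levels of 1884 and 2048 TPM for neurons and 2940 and 3023 TPM for progenitors. Red cell globin genes were also present, at a summed erythroid level of 6564 and 6480 TPM, while 1 of 4 mature astrocyte markers reached 1 TPM in both libraries.

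Of the 94 Kcn genes, 52 (55.3%) were detected, meaning 1 TPM or more in both libraries, against 62.1% of all protein-coding genes. A further 7 reached 1 TPM in a single library and 35 in neither. Levels were low: the median of the detected Kcn genes was 3.63 TPM, against 21.4 TPM for the detected protein-coding genes. Only 10 Kcn genes averaged 10 TPM or more, 10 lay from 5 to 10 TPM and 35 from 1 to 5 TPM. The 10 highest held 55.9 ± 0.55% of the summed Kcn level (SD, n = 2), which was 350.2 TPM in replicate 1 and 383.4 TPM in replicate 2. For scale, 14 of the 20 pore genes of voltage-gated sodium and calcium channels (Scn and Cacna1) were detected, with a median of 7.32 TPM among those 14 and Scn3a the highest at 31.6 and 36.3 TPM.

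**Figure D1:**
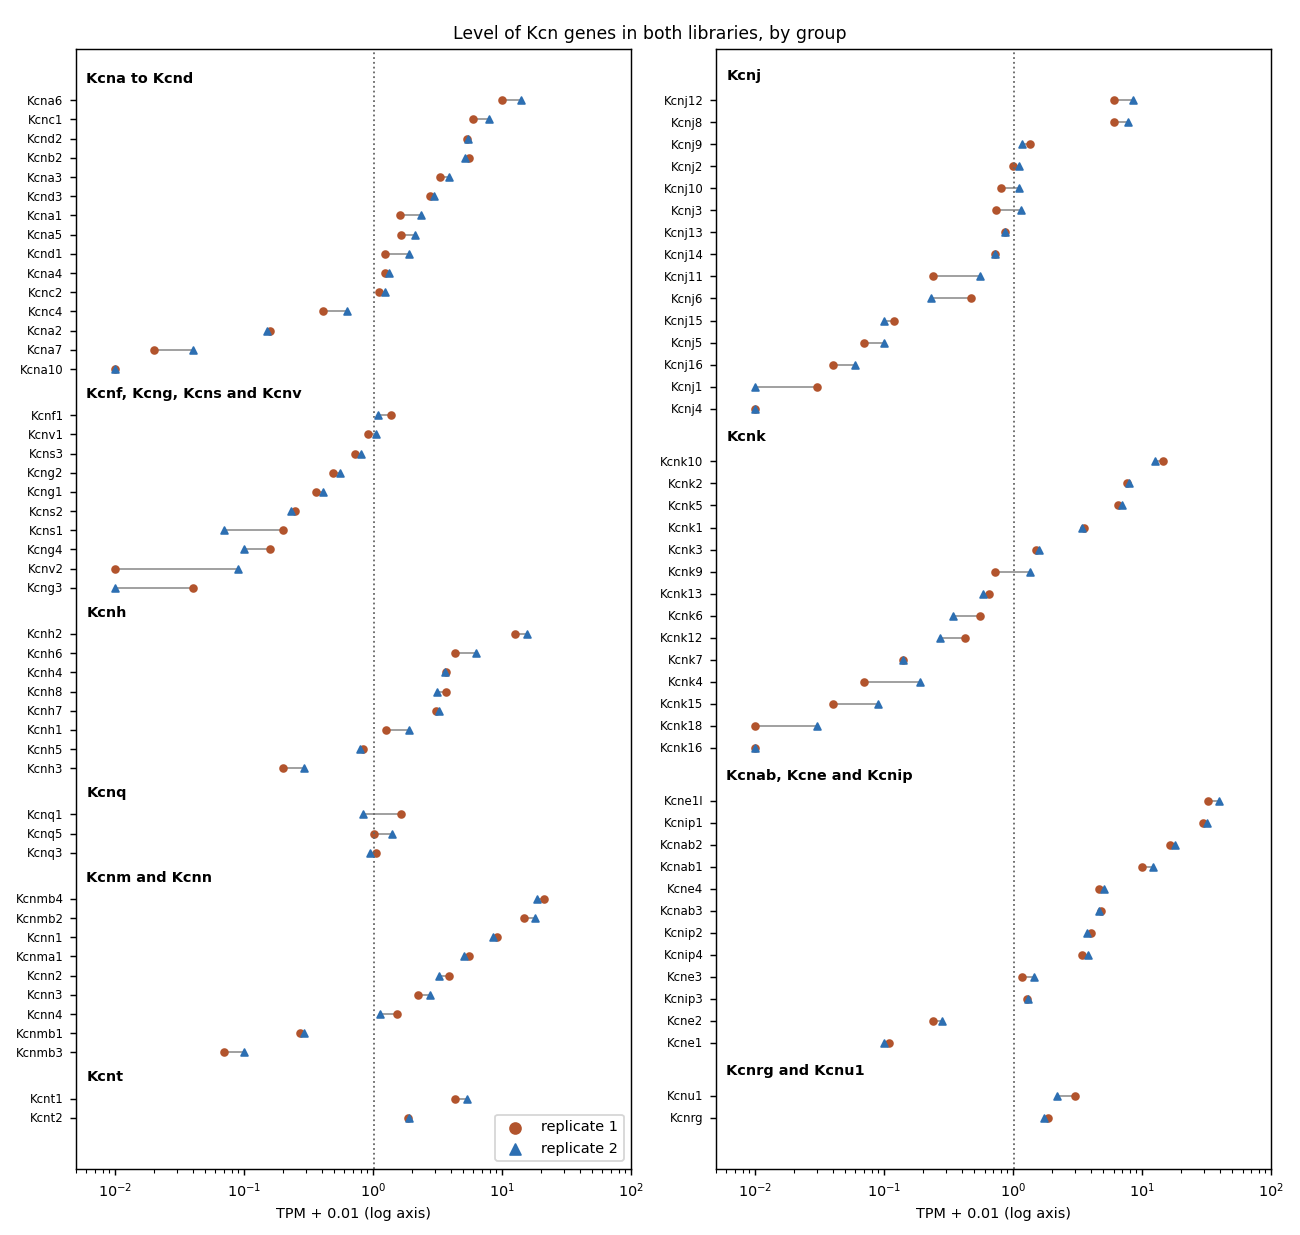
TPM + 0.01 on a log axis for 90 of the Kcn genes in replicate 1 (circles) and replicate 2 (triangles), by group, with the 1 TPM detection level dotted. Kcne1l and Kcnip1 stand at the right, near 30 to 40 TPM in both libraries, and most of the Kcnj, Kcnk and silent-subunit genes lie left of the line.

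Auxiliary subunit genes took a large share of the Kcn level. The 12 genes of the Kcnab, Kcne and Kcnip families held 31.4 ± 0.655% of summed TPM (SD, n = 2), and 10 of the 12 were detected. With the 4 Kcnmb genes added, 16 auxiliary genes, 12 of them detected, held 41.4 ± 0.208% of TPM. Their transcripts are short, so the same 16 genes held 27.1% of the Kcn counts.

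Kcne1l (also named Kcne5; X:142304752-142306294, minus strand, mm10) had the highest mean of all Kcn genes, at 32.63 and 39.45 TPM in replicates 1 and 2. It encodes a single-pass subunit whose human counterpart restrains Kcnq1 channels in cultured cells, and Kcnq1 was listed at 1.63 and 0.82 TPM. Among the other Kcne genes, Kcne4 had 4.65 and 5.09 TPM and Kcne3 had 1.16 and 1.45 TPM. Kcne1 and Kcne2, the cardiac and epithelial members, stayed under 0.3 TPM in both libraries.

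Kcnip1 (11:33629339-33993152, minus strand) encodes a calcium-binding subunit of the Kcnd channels and had 29.66 and 32.09 TPM in replicates 1 and 2. Its relatives were much lower, with Kcnip2 at 3.98 and 3.72 TPM, Kcnip4 at 3.39 and 3.81 TPM, and Kcnip3, which is also known as a transcriptional repressor, at 1.28 and 1.29 TPM. The summed Kcnip level was 4.14 times the summed level of the 3 Kcnd pore genes in replicate 1 and 3.98 times in replicate 2. On counts, with no correction for length, these ratios were 1.38 and 1.35.

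Kcnab genes encode cytoplasmic beta subunits of the Kcna channels. Kcnab2 had 16.37 and 17.90 TPM, Kcnab1 9.93 and 12.18 TPM, and Kcnab3 4.81 and 4.65 TPM, so all 3 were detected in the same order in both libraries. Exons of Kcnab2 overlap those of Gm16334 on the same strand, and its TPM lay outside its own deposited interval in both libraries.

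**Figure D2:**
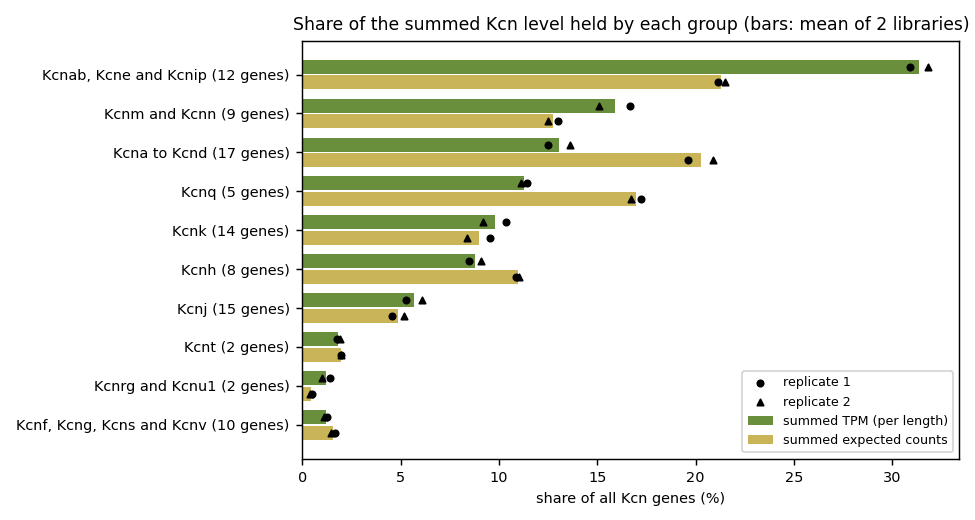
Share of the summed Kcn level held by each group, in percent of TPM and of expected counts; bars are means of 2 libraries and points are the libraries. The Kcnab, Kcne and Kcnip group is the longest bar at 31.4% of TPM and 21.3% of counts, while the Kcna to Kcnd genes hold 13.0% of TPM and 20.3% of counts.

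Voltage-gated pore genes of the Kcna to Kcnd families were widely detected, at 13 of 17. They held 13.0 ± 0.770% of summed TPM (SD, n = 2) and 20.3% of Kcn counts. Kcna6, a delayed-rectifier subunit, led with 9.93 TPM in replicate 1 and 14 TPM in replicate 2. Most of this Kcna6 level was given to transcripts not annotated as protein-coding. Kcnc1, a subunit of the channels that allow fast firing, had 5.94 and 7.90 TPM. Kcnd2, a subunit of the rapidly inactivating A-type current, had 5.30 and 5.44 TPM, and Kcnb2, a delayed-rectifier subunit, had 5.49 and 5.12 TPM. Kcnd2 and Kcnb2 were near equal in the pools and Kcna6 was higher in replicate 2, while Kcnc1, despite its TPM values, had 457 and 448 counts.

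The axonal pair Kcna1 and Kcna2, which co-assemble near the nodes of mature myelinated fibres, was very unequal. Kcna1 had 1.61 and 2.34 TPM from 284 and 428 counts, while Kcna2 had 0.15 and 0.14 TPM from 10 counts in each library. Kcnc4 had 0.40 and 0.62 TPM, and Kcna10 had no count in either library. The partner genes of these families were present at unlike levels. Dpp6, which binds Kcnd channels, had 16.8 and 18.1 TPM, and Amigo1, which binds Kcnb channels, had 13.4 and 16.0 TPM. Cntn2, which gathers Kcna channels on axons, had 67.9 and 86.3 TPM. Means of the listed partners ran from 2.955 to 17.45 TPM for Kcnd and from 2.63 to 77.1 TPM for Kcna.

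Electrically silent subunits, which form no channel alone and join Kcnb subunits, were nearly all low. Of the 10 genes of the Kcnf, Kcng, Kcns and Kcnv families, only Kcnf1 was detected, at 1.38 and 1.08 TPM. Kcnv1 had 0.90 and 1.04 TPM and Kcns3 had 0.71 and 0.80 TPM. The other 7 lay under 0.6 TPM in both libraries.

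Kcnh genes encode the ether-a-go-go family, and 6 of 8 were detected. Kcnh2, of the erg branch and best known from the heart, had 12.57 and 15.67 TPM, well above every other member. The other erg genes, Kcnh6 and Kcnh7, had 4.31 and 6.27 TPM and 3.06 and 3.22 TPM. Of the elk branch, Kcnh4 had 3.69 and 3.62 TPM and Kcnh8 had 3.70 and 3.12 TPM, while Kcnh3 had 0.19 and 0.28 TPM. The eag branch was low, with Kcnh1 at 1.25 and 1.90 TPM and Kcnh5 at 0.82 and 0.78 TPM.

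Kcnq genes encode subunits of slow channels, among them those of the M-current that limits repetitive firing. Kcnq3, an M-current subunit of the adult brain, had 1.05 and 0.94 TPM from 212 and 219 counts. Kcnq5, another brain member, had 1.01 and 1.39 TPM, and Kcnq1, known from the heart and inner ear, had 1.63 and 0.82 TPM. All 3 lay near the detection level in both libraries. Kcnq1 exons overlap those of Kcnq1ot1 on the opposite strand, and no source used here says whether counting used strand.

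Among calcium-activated channels, 7 of the 9 Kcnm and Kcnn genes were detected, and they held 15.9 ± 1.12% of summed Kcn TPM (SD, n = 2). The pore gene of the large-conductance channel, Kcnma1, had 5.56 and 5.05 TPM. The beta subunits above it were Kcnmb4, the neuronal beta subunit, at 21.03 and 18.74 TPM, and Kcnmb2, which gives inactivation, at 14.80 and 18.04 TPM. The summed Kcnmb level was 6.5 and 7.36 times that of Kcnma1 in TPM and 2.61 and 3.23 times in counts. Kcnmb1, the smooth muscle beta subunit, had 0.26 and 0.28 TPM and Kcnmb3 stayed under 0.1 TPM. Kcnmb4 has exons shared with its antisense transcripts Kcnmb4os1 and Kcnmb4os2.

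All 4 Kcnn genes, the small- and intermediate-conductance channels, were detected. Kcnn1 led at 9.08 and 8.56 TPM, followed by Kcnn2 at 3.87 and 3.24 TPM and Kcnn3 at 2.24 and 2.75 TPM. Kcnn4, known from red cells and epithelia rather than neurons, had 1.53 and 1.13 TPM. The sodium-activated channels were both detected, with Kcnt1 at 4.29 and 5.35 TPM and Kcnt2 at 1.84 and 1.89 TPM.

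Inward rectifiers, which hold the resting potential, were mostly low, with 3 of 15 Kcnj genes detected. Kcnj12, a strong inward rectifier, had 6.08 and 8.5 TPM in replicates 1 and 2. Kcnj8, a pore of the ATP-sensitive channel found in vessel walls, had 6.07 and 7.70 TPM, against 0.23 and 0.54 TPM for Kcnj11, the pore of that channel in pancreatic beta cells and many neurons. The sulfonylurea receptor genes were closer to each other, with Abcc8 at 2.38 and 2.96 TPM and Abcc9 at 1.5 and 1.87 TPM. Pericyte and smooth muscle markers, the cells Kcnj8 is known for, were all 5 detected, at a summed 91.9 and 78.4 TPM. The list went both ways between the pools. Pdgfrb, at 16.96 and 18.38 TPM, and Rgs5, at 8.44 and 8.77 TPM, were a little higher in replicate 2, as Kcnj8 was. The other 3 were lower there: Acta2 at 54.62 and 41.04 TPM, Tagln at 8.76 and 7.36 TPM, and Cspg4 at 3.12 and 2.83 TPM. The part of these cells in the Kcnj8 level was not tested.

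Of the G protein-gated Kcnj genes, Kcnj9 was detected at 1.35 and 1.16 TPM, Kcnj3 had 0.73 and 1.14 TPM, Kcnj6 had 0.46 and 0.22 TPM and Kcnj5 stayed under 0.1 TPM. Kcnj10, the glial inward rectifier, had 0.79 and 1.10 TPM, and its relative Kcnj16 stayed at 0.03 and 0.05 TPM. Kcnj4 had no count in either library. Kcnj13 shows the limit of length correction at low counts: 19.94 and 6.84 counts were listed as 0.86 and 0.85 TPM, because in replicate 2 most of its level, 0.66 TPM, was given to a transcript of 261 nucleotides.

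Leak channels of the Kcnk family, with a pair of pore domains in each subunit, were detected for 5 of 14 genes. Kcnk10 had 14.61 and 12.50 TPM and Kcnk2 had 7.58 and 7.91 TPM, both of the branch opened by stretch and lipids, whereas the third of that branch, Kcnk4, had 0.06 and 0.18 TPM. Kcnk5, closed by acid outside the cell, had 6.51 and 7 TPM. Kcnk1 had 3.56 and 3.39 TPM and Kcnk3, another acid-sensitive channel, had 1.5 and 1.58 TPM. Its close relative Kcnk9 stood at 0.72 and 1.35 TPM from 16 and 31 counts. Kcnk18, known from sensory neurons, had 0 and 1 count, and Kcnk16 had none in either library.

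Both remaining genes were detected, with Kcnu1, a channel gene known from sperm, at 3.01 and 2.16 TPM from 70 and 60 counts. Its longest listed transcript, Kcnu1-201 of 3529 nucleotides, had 0 counts in both libraries. The level was given to Kcnu1-202, of 1446 nucleotides, and in replicate 1 also to Kcnu1-203, of 697 nucleotides. Kcnrg, which is not a channel but a soluble protein known to hinder the assembly of voltage-gated channels, had 1.86 and 1.73 TPM from 28 and 27 counts.

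Absence was limited by depth. Kcna10, Kcnj4 and Kcnk16 were the 3 genes with 0 counts in both libraries, and a count of 0 allows up to 0.0949 CPM (counts scaled to library size) in replicate 1 and 0.0895 in replicate 2 (3 counts of the total; counting error only). In all, 8 Kcn genes had under 3 counts in both libraries. By contrast, 14 genes under 1 TPM in both had 10 or more counts in both, among them Kcnh5 with 65 and 64 counts, so these were measured at a low level rather than unseen. Detection by TPM also separates genes lying very near the line: Kcnq5 at 1.01 and 1.39 TPM counts as detected, and Kcnj2, a strong inward rectifier at 0.99 and 1.11 TPM, does not.

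The 2 pools gave similar Kcn levels. Among the 55 Kcn genes averaging 1 TPM or more, 0 were over 2-fold apart on the log2(TPM + 1) scale, where 0.148% of protein-coding genes and 1.43% of all genes at that level were. So few protein-coding genes passed 2-fold that a count of 0 in 55 sets the Kcn genes apart in no way. The median log2 ratio of replicate 1 over replicate 2 was -0.08, beside -0.04 for protein-coding genes and -0.03 for all genes. The level was higher in replicate 2 for 36 of the 55, or 65.5%, against 60.7% of protein-coding genes and 58.5% of all genes. Deposited TPM intervals did not overlap for 8 of the 55 Kcn genes, against 15.9% of protein-coding genes and 14.3% of all genes.

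On counts, the ratio between the libraries was given an exact 95% binomial interval, which covers counting error only. The interval lay above 0, with CPM higher in replicate 1, for 4 of the 55 genes (among them Kcnn2, Kcnh8 and Kcnk10), against 14.8% of protein-coding genes and 14.5% of all genes. For Kcnk10 the log2 count ratio was 0.26, with an interval of 0.10 to 0.41. The interval lay below 0, with replicate 2 higher, for 12 Kcn genes, against 20.8% of protein-coding genes and 18.8% of all genes. As shares of the 55 genes, both counts of Kcn genes are near or under those backgrounds.

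Among these 12 were Kcnh6, Kcnd1, Kcnh1, Kcna6, Kcna1, Kcnj12, Kcnq5, Kcnmb2, Kcnab1, Kcnj8 and Kcne1l. Kcna6 was the most abundant of the 6 with the lowest ratios, with 912 and 1410 counts, a log2 count ratio of -0.54 and an interval of -0.67 to -0.42. Kcnh6 had 215 and 349 counts, a ratio of -0.61 and an interval of -0.87 to -0.36. Kcnd1, an A-type subunit, had 1.22 and 1.89 TPM and a log2 count ratio of -0.60. These genes span voltage-gated, inward-rectifier and auxiliary groups, so no single group made up the list.

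By log2(TPM + 1), the 5 lowest ratios were those of Kcna6 at -0.46, Kcnh6 and Kcnk9 at -0.45, Kcnj12 at -0.42 and Kcnd1 at -0.38. The 5 highest included those of Kcnq1 at 0.53, Kcnu1 at 0.34, Kcnn4 at 0.25 and Kcnk10 at 0.21. Count intervals held 0 for Kcnk9, Kcnq1, Kcnu1 and Kcnn4. The Kcnq1 ratio also rests on a short transcript: 0.55 of its 1.63 TPM in replicate 1 came from 2 counts of a transcript of 282 nucleotides, and its TPM lay outside its deposited interval in both libraries.

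Markers of some neighbouring tissues differed between the pools too. All 6 sensory ganglion markers were lower in replicate 1, at a summed 296 TPM against 423 TPM in replicate 2, and all 6 skeletal muscle markers were higher in replicate 1, at 306 TPM against 222 TPM in replicate 2. No marker in either list was at 0 counts. For scale, 60.7% of protein-coding genes averaging 1 TPM or more were higher in replicate 2. Some other lists lay closer, with endothelium at a summed 110 and 114 TPM and heart muscle at 11.77 and 11.05 TPM. Neural crest and Schwann markers had a summed 73.8 and 88.8 TPM. The part of sensory ganglion, skeletal muscle or other tissue in the Kcn ratios was not tested.

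**Figure D3:**
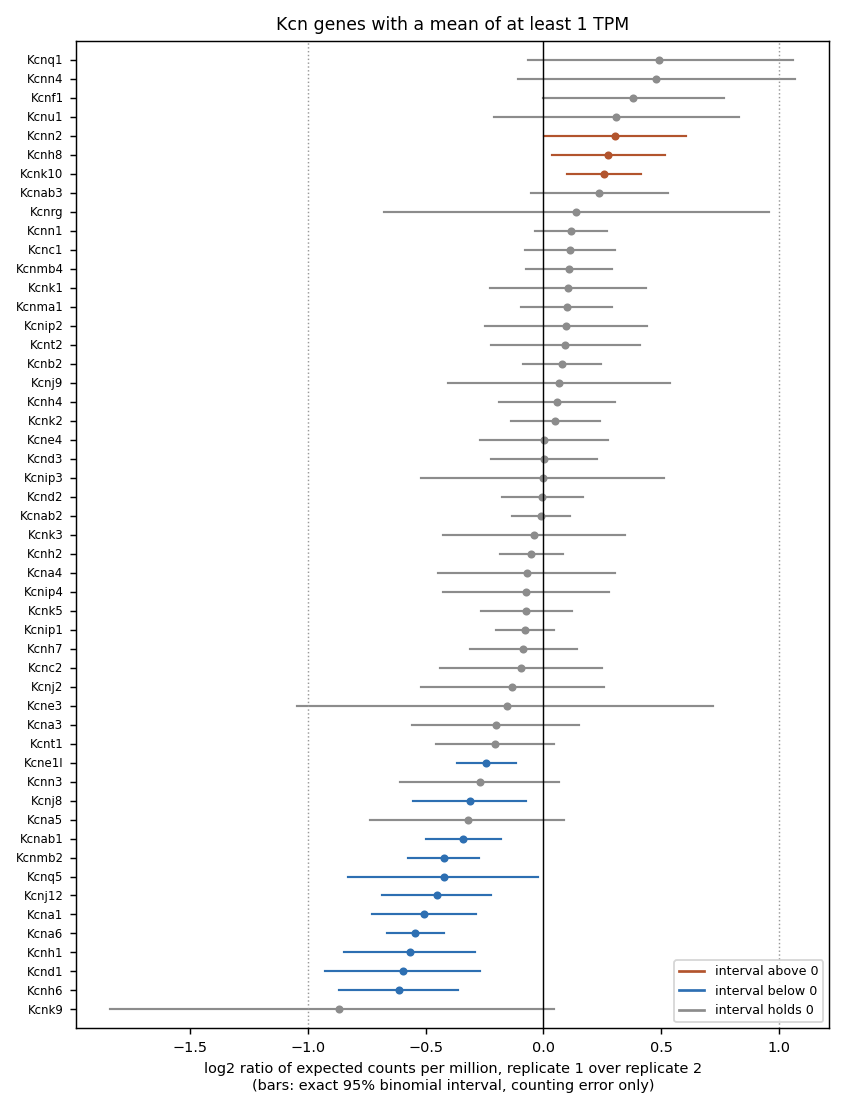
Log2 ratio of CPM, replicate 1 over replicate 2, for 51 of the 55 Kcn genes averaging 1 TPM or more; bars are exact 95% binomial intervals and dotted lines mark 2-fold. All points lie between the dotted lines, with 3 intervals wholly above 0 and 11 wholly below.

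Transcript tables held 300 transcripts of Kcn genes, 62 of which reached 1 TPM in both libraries. The most abundant transcript was examined in the 14 Kcn genes that had more than 1 transcript and reached 5 TPM in each library. It differed between the libraries in 2 of them, Kcnc1 and Kcnma1, against 7.34% of protein-coding genes chosen the same way. It was not annotated as protein-coding in at least 1 library for 2 of them, Kcna6 and Kcnc1, against 10.2%. With 14 genes, counts of this size say little about the family as a whole.

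In Kcna6 the most abundant transcript, Kcna6-201, is annotated for nonsense-mediated decay and had 6.98 and 6.82 TPM in replicates 1 and 2, or 70.33% and 48.75% of the gene. The coding transcript Kcna6-204 was listed at 0 TPM in replicate 1 and at 3.88 TPM in replicate 2. The 2 transcripts are close in length, at 5827 and 5836 nucleotides, and the deposited posterior mean shares split them otherwise. There Kcna6-204 held 26.19% and 25.36% of the gene and Kcna6-201 held 36.33% and 46.45%. Which of the 2 transcripts carries the higher Kcna6 level of replicate 2 therefore depends on the estimate. The processed transcript Kcna6-203 held a further 29.53% and 21.3% of the listed TPM. Transcripts not annotated as protein-coding thus held 99.86% of the gene's listed TPM in replicate 1 and 70.05% in replicate 2. Kcna6 exons also overlap Gm26673 on the opposite strand.

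In Kcnc1 the listed switch rests on few reads. A processed transcript of 531 nucleotides, Kcnc1-202, held 41.72% of the gene's TPM in replicate 1 and 58.59% in replicate 2, yet 4.66% and 9.21% of its counts. The coding Kcnc1-201, with 7759 nucleotides, held 42.50% and 27.69% of TPM and 84.2% and 77.2% of counts. By counts the coding transcript was therefore first in both libraries.

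Kcnma1 is listed with 15 transcripts, of which 6 had counts in replicate 1 and 7 in replicate 2, all of them coding. Kcnma1-201 led in replicate 1 at 42.71% and Kcnma1-212 in replicate 2 at 32.04%. The posterior mean shares had the same leaders at lower shares. There Kcnma1-201 held 20.41% and 15.1%, and Kcnma1-212 held 18.79% and 19.81%, in replicates 1 and 2. Kcnip1 and Kcnmb4 were simpler, with Kcnip1-201 at 68.12% and 74.41% and Kcnmb4-201 at 79.18% and 83.37%, and Kcnn1-201 held 100% of its gene in both libraries.

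Of the other highest genes, Kcne1l has a single listed transcript. Kcnab2-201 held 55.54% and 58.83% of Kcnab2. Kcnmb2-205 held 47.16% and 68.53% of Kcnmb2, all of whose level was coding.

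**Figure D4:**
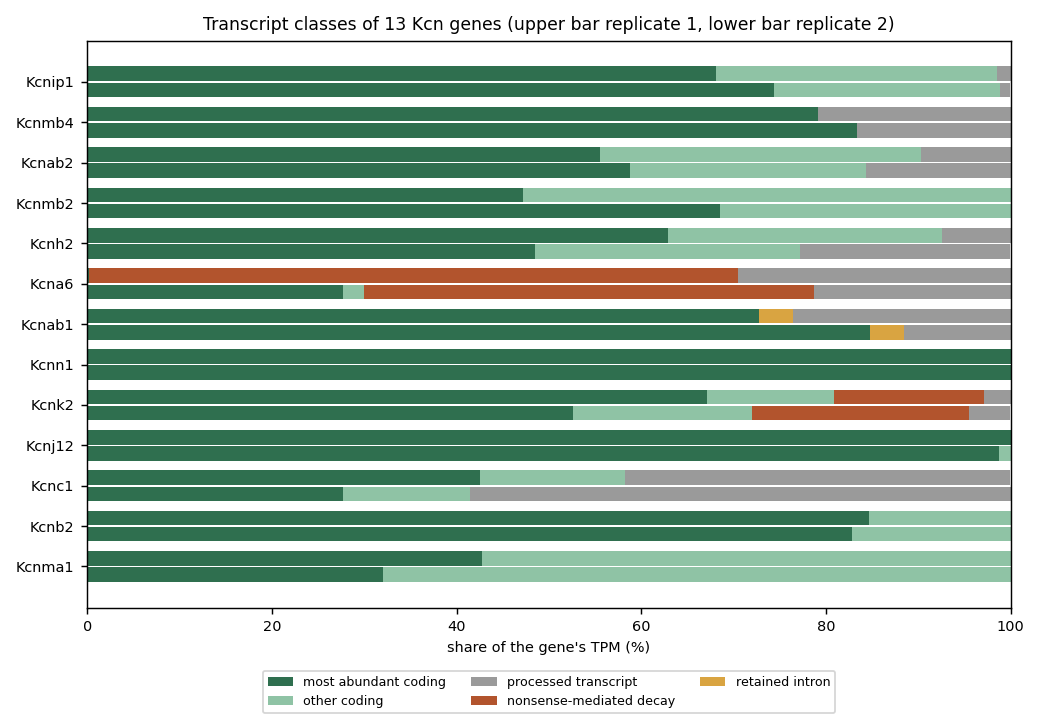
Share of each gene's TPM by transcript class, in percent, for 13 of the 14 Kcn genes that had more than 1 transcript and reached 5 TPM in each library; the upper bar of each gene is replicate 1 and the lower bar replicate 2. Kcnn1 and Kcnj12 are almost wholly one coding transcript, and Kcna6 is led by a nonsense-mediated decay transcript in both bars.

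Several Kcn genes lie side by side in the genome at unlike levels. On chromosome 6, Kcna1 and Kcna6 are 61945 bases apart, with Kcna6 at 9.93 and 14 TPM and Kcna1 at 1.61 and 2.34 TPM. On chromosome 3, Kcna3 at 3.31 and 3.89 TPM is followed after 63076 bases by Kcna2 at 0.15 and 0.14 TPM and after a further 68051 bases by Kcna10 with no count. Kcnmb1, at 0.26 and 0.28 TPM, lies within the span of Kcnip1, at 29.66 and 32.09 TPM. Exons shared with another gene were found for 28 of the 94 Kcn genes, 26 on the opposite strand and 2 on the same strand. For the 26, reads of the overlapping gene cannot be separated from the gene's own where strand was not used. For the 2 on the same strand, the use of strand would not separate reads of the shared exons.

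Promoter sequence was taken from RefSeq for the 69 Kcn genes that matched by symbol, with 94 windows of 250 bases before a start on GRCm38.p6. The median number of CG dinucleotides, the sites of DNA methylation, was 7 in Kcn windows, beside 10 over 20150 windows of all protein-coding genes. That 7 counts each window of a gene with several, and over the 54 Kcn genes with a single window the median was 9.5. Windows of detected Kcn genes had a median of 8 and windows of the others 7. For genes with a single window the gap was wider, with medians of 14 over 29 detected genes and 7 over 25 others. In the 47 windows that end within 100 bases of the start of the gene's most abundant transcript, the median was 10. It was 10 for detected genes and 11.5 for the others. The size and the direction of the gap thus depended on the windows used. The letters TATAAA, on either strand, were in 3.19% of Kcn windows and 11.2% of all windows, and GGGCGG, on either strand, was in 44.7% and 44.1%.

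The sequences below are the windows of the 2 highest and the 2 lowest Kcn genes among those with a single window that ends within 100 bases of their main transcript's start and holds no annotated exon, and whose following bases were found in a listed transcript of the gene. They are shown as examples of CG-rich windows before genes of unlike level, not as typical of either end. Kcnk16, which has no count, has a single window with 0 CG and was not among them because the bases after its start were not found in its listed transcripts. Kcna10, also with no count, has a single window with 0 CG too and was left out because an annotated exon lies in it. Kcnip2 (chr19:45816064-45816313, minus strand) has 15 CG and a mean level of 3.85 TPM, and Kcna3 (chr3:107035912-107036161, plus strand) has 31 CG and a mean of 3.60 TPM. Kcng3 (chr17:83631896-83632145, minus strand), with 2 and 0 counts, has 41 CG, and Kcnj4 (chr15:79505242-79505491, minus strand), with no count, has 35 CG. All read 5′ to 3′ on the gene's strand, from the build GRCm38.p6, with each CG in capitals, and all 4 hold GGGCGG on at least 1 strand and no TATAAA.
Kcnip2: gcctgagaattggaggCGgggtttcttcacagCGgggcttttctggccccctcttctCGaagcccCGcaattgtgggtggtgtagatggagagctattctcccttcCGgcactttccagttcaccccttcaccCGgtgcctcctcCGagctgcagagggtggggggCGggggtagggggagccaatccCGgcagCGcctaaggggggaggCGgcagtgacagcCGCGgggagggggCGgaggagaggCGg
Kcna3: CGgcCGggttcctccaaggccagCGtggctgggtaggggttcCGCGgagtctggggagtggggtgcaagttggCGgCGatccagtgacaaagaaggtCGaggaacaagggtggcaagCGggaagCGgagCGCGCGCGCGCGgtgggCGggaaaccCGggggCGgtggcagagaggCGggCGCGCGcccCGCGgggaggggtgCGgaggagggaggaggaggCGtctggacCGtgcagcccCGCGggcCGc
Kcng3: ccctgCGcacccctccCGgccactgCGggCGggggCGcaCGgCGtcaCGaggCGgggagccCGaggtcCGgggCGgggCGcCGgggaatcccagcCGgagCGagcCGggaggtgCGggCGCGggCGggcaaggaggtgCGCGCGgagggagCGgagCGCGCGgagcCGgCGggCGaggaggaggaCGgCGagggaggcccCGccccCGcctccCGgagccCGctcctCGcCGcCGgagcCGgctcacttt
Kcnj4: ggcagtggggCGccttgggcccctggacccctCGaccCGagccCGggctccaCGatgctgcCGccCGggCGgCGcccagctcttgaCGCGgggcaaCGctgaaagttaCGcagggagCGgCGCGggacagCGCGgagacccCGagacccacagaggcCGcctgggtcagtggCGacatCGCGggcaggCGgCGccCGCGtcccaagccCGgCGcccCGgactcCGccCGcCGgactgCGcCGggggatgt

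**Figure D5:**
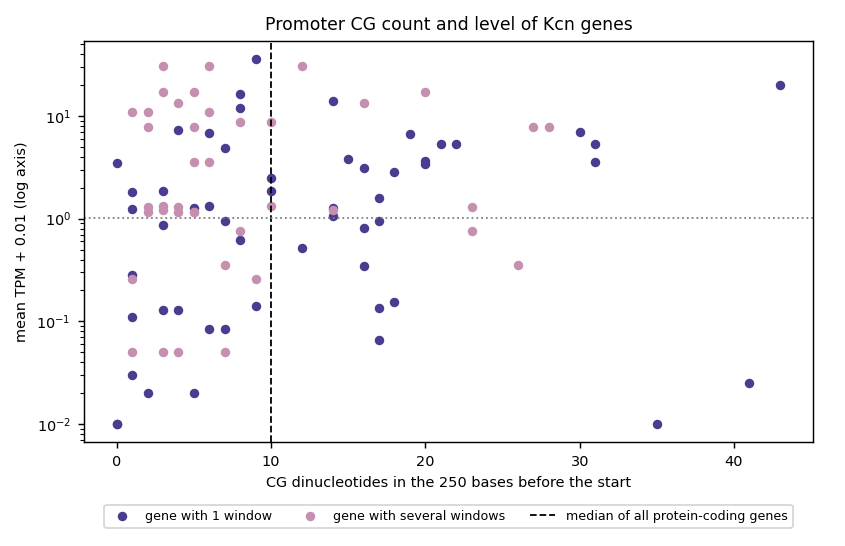
CG dinucleotides in the 250 bases before the start (x axis) against mean TPM + 0.01 on a log axis, with 1 point per window of a matched Kcn gene; the dashed line is the median of 10 for all protein-coding genes and the dotted line is 1 TPM. Points with few and with many CG lie both above and below 1 TPM, and Kcng3 and Kcnj4 are the CG-rich points at the bottom right.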

How the data were processed

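Per the labels' protocols, RNA of the pooled neural tubes was isolated by the mirVana method, and a SMARTer Ultra Low kit manual is linked. The series is marked as superseded by a later one, not used here. Expected counts and TPM per gene and transcript, and the percent share of each transcript within its gene, were made by the authors with assembly mm10 and GENCODE M4, per the deposited read-me. The program, the use of strand and the level of the deposited TPM intervals are not given in the sources used here. Names, biotypes and coordinates came from GENCODE M21 on GRCm38, which matched 42462 of 43346 mouse genes. Replicates are numbered as in the labels, which give no batch, and p-values were not computed for 1 group of 2 libraries.

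Log2 ratios are of TPM + 1, replicate 1 over replicate 2, and the pseudocount understates differences of low genes. Count ratios are of CPM over mouse gene counts, with an exact 95% Clopper-Pearson interval, whose ratios were checked on simulated data. The simulated counts held counting error only, so the check says nothing on variation between pools. Between-library scalings for the alternatives used edgeR 4.0.16 and DESeq2 1.42.0 in R 4.3.3 on expected counts rounded to whole numbers. The rest used Python 3.11.15, pandas 2.3.3, scipy 1.17.1 and matplotlib 3.10.9. The genes and gene lists were chosen with earlier results of these data known. Genes named in full were the 3 highest of each group, the 5 largest log2 ratios in each direction (genes averaging 1 TPM or more, with 20 counts or more in either library), genes with 0 counts in both libraries, and, for transcripts, genes whose main transcript differed or was noncoding plus the 6 highest; others named were chosen after their values were seen. Protein sequences were not analysed here. Some Kcn and related genes are not reported here by name but stay in all counts and sums.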

Additional observations from a re-analysis of the deposited data

How the results depend on the processing

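The number of detected Kcn genes, 52, was 55 with the posterior mean TPM, 60 with either count-per-million scaling, 64 at 0.5 TPM and 35 at 2 TPM, and 57 or 54 with a single library. The count over 2-fold apart stayed 0 under all 6 alternatives. With no filter on low levels, the 35 Kcn genes under 1 TPM in both libraries could not pass 2-fold, because 1 is added to each TPM. The median log2 ratio of -0.08 was -0.052 with the posterior mean, 0 with the TMM and the DESeq2 scaling, -0.10 with a pseudocount of 0.1, -0.040 with no filter and -0.12 at a mean of at least 5 TPM, so its sign is not firm. The share of the 10 highest genes, 55.9%, was 54.8% with the posterior mean, 50.6% with both count scalings and 55.5% to 56.3% with a single library. The share of the Kcnab, Kcne and Kcnip genes, 31.4%, was 31.2% with the posterior mean, 21.3% with both count scalings, which do not correct for length, and 30.9% to 31.8% with a single library. Over the other groups, 18 pairs of group and setting moved by more than the SD between the libraries and 27 did not. The 27 include every single-library setting, which could not move, because each library always lies within the SD of the mean of 2. The TMM and DESeq2 shares are equal by construction, because scaling a whole library leaves its shares unchanged. These counts therefore do not measure how stable the shares are. The main transcript differed in 2 genes with either share. No paired analysis was possible because there is 1 group. With 2 pools, the spread is known from a single difference per gene, and genes of a few counts are limited by depth.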

Other observations

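Outside the Kcn genes, other potassium-handling genes were present at higher levels. Of 31 related genes, 23 were detected. The sodium pump, which builds the potassium gradient, had its beta subunit Atp1b3 at 136 and 139 TPM and Atp1b1 at 53.4 and 53.1 TPM. Among the hyperpolarization-activated pore genes, Hcn3 had 19.1 and 16.1 TPM and Hcn4 had 2.72 and 2.65 TPM, while Hcn2 had 0.65 and 0.50 TPM. Of the cation-chloride cotransporters, Slc12a7 had 23.3 and 24.3 TPM and the neuronal Slc12a5 had 8.27 and 9.35 TPM. Slc12a2, which brings chloride in, had 6.85 and 6.93 TPM. Ank3, the scaffold that gathers ion channels at the axon's initial segment, had 81.2 and 77.5 TPM.

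Antisense names left out of the Kcn set included an abundant one by counts. Kcnq1ot1 (7:143203458-143296549), a long imprinted RNA that overlaps Kcnq1, had 6342 and 5922 counts and, because of its length, 3.78 and 3.40 TPM. Its counts were far above the 65.2 and 49.4 of Kcnq1. Kcnmb4os2 had 4.56 and 4.80 TPM from 66.1 and 75.5 counts, while Kcnmb4os1, Kcnab3os and Kcnd3os stayed under 10 counts in both libraries.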
